A study of Mus musculus with 12 samples.

Results

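Slc26a4 and 8 genes of lung fluid transport were followed across 12 arrays of whole mouse lung RNA: Slc26a4, the epithelial sodium channel genes Scnn1a, Scnn1b and Scnn1g, the aquaporin genes Aqp1 and Aqp5, the sodium pump gene Atp1b1, and the channel genes Cftr and Kcnk2. The 9 genes are 9 of 18193 that have a probe set annotated to 1 symbol on the array. They are represented by 14 such probe sets, 13 of which passed a filter on low values, and each gene had at least 1 that passed. The group was chosen by results of these data, because Slc26a4 was high and Kcnk2 low in rhPBEF lungs against Control lungs. Values of that comparison are therefore given below as a description with no p-value. The same holds for Slc26a4 and Kcnk2 in every other pairwise comparison with the Control or the rhPBEF group, since those arrays took part in the choice. For both genes it also holds in the ventilation difference averaged over rhPBEF status, which uses the same arrays. Interactions of all members are values only as well, since they contain the comparison behind the choice. All other comparisons share arrays with one another.

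The arrays fell into 4 groups of 3. In the rhPBEF & VALI group mice received rhPBEF, recombinant human pre-B-cell colony-enhancing factor, by injection into the trachea and were also ventilated. The dose was 20 µg per mouse, given in 1.5 µl of water per gram, and ventilation lasted 4 hours with breaths of 30 ml per kg. The rhPBEF group received the same dose without ventilation, the VALI group was ventilated in the same way without rhPBEF, and the Control group received PBS. All mice were 8 to 12 weeks old. The labels name no strain or genetic change, no group ventilated at another tidal volume, no time between injection and collection, and no vehicle for the VALI group. Whether replicates were separate mice is not stated, and the p-values may therefore reflect only technical spread between arrays.

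Air spaces are kept nearly dry because the lung epithelium moves salt and water follows. Sodium enters epithelial cells through the channel made of the products of Scnn1a, Scnn1b and Scnn1g, is pumped out by Na,K-ATPase, of which Atp1b1 encodes a beta subunit, and water crosses through aquaporins. Anions run through CFTR, the cyclic AMP-activated chloride and bicarbonate channel lost in cystic fibrosis, and through pendrin, the chloride, bicarbonate and iodide exchanger that Slc26a4 encodes. Pendrin is best known from the inner ear and thyroid, and in airway epithelium it is known to be induced by inflammatory cytokines. Kcnk2 encodes TREK-1, a potassium channel of the K2P family that opens when the membrane is stretched.

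Promoter windows of Slc26a4, Cftr and Kcnk2 are shown because these are the genes of the group with the largest differences between groups. Each runs from 250 bases before to 50 bases after an annotated start, is read 5′ to 3′ on the gene's strand, and comes from RefSeq on GRCm38.p6. Windows were found for 8 of the 9 genes, 11 windows in all. Capitals mark matches to the motifs searched. The Slc26a4 window lies at chr12:31559935-31560234 on the minus strand, that of Cftr at chr6:18170437-18170736 on the plus strand, and the first of 4 windows of Kcnk2 at chr1:189402224-189402523 on the minus strand.
Slc26a4: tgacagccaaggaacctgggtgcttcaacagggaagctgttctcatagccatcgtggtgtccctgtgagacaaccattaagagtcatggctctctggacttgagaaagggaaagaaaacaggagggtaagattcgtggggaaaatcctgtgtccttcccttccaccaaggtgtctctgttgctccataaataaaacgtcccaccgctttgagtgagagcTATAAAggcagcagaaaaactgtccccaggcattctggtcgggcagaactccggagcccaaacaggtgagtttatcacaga
Cftr: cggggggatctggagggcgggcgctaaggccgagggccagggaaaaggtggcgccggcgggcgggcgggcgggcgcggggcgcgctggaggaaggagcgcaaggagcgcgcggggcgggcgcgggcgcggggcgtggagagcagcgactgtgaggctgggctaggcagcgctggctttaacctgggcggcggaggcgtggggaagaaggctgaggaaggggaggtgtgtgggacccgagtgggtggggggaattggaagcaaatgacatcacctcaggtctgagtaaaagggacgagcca
Kcnk2: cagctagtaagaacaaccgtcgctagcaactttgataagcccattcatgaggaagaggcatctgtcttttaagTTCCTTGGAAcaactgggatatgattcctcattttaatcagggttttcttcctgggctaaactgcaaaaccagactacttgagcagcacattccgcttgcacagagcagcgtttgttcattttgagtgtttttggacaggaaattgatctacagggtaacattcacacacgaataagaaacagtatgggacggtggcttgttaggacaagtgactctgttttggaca

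The motifs, searched on both strands, were the TATA box TATAAA, the AP-1 site TGANTCA, the cyclic AMP response element TGACGTCA, the STAT site TTCNNNGAA, its longer spacing TTCNNNNGAA, and the kappa B consensus. The Slc26a4 window held 1 match, a TATAAA 31 bases before the start, and 13.6% of all 32851 windows hold that motif. The Cftr window held none and was 71.3% G or C, whereas the Slc26a4 window was 50% and the median window 52.7%. The Kcnk2 window shown, 43% G or C, held TTCNNNNGAA 177 bases before the start, a motif of 6.95% of windows that reads the same on both strands. A second Kcnk2 window held TGANTCA and TTCNNNNGAA, 126 and 163 bases before its start. The other 2 Kcnk2 windows and those of the other genes held none of the motifs. Among all windows TGANTCA is held by 7.81%, TGACGTCA by 1.79%, TTCNNNGAA by 8.3% and the kappa B consensus by 4.51%.

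Deposited values are on the log2 scale, so a difference of 1 is a doubling, and they ran from 2.99 to 15.02. Array medians lay between 7.0 and 7.07. Lung markers were high on every array, with Sftpc of alveolar type II cells at 14.76 to 14.97, Scgb1a1 of club cells at 14.82 to 15.02 and Ager of alveolar type I cells at 14.27 to 14.55. The summed level of 11 tested neutrophil markers, of 14 listed, was 14.32 to 15.63 in rhPBEF & VALI lungs, 14.61 to 15.12 in rhPBEF lungs, 13.07 to 15.34 in VALI lungs and 11.97 to 12.46 in Control lungs. Among the 9 genes, rhPBEF & VALI replicate 3 stood apart in Slc26a4 and Cftr, and VALI replicate 2 in Atp1b1, so results that turn on either array are also given without it. In whole lung, fewer cells of a type and less RNA per cell cannot be told apart.

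Slc26a4 was higher in both rhPBEF groups. It stood at 11.71, 11.48 and 10.20 in the rhPBEF & VALI lungs and at 11.38, 11.08 and 11.07 in the rhPBEF lungs. It stood at 7.29, 8.39 and 8.23 in the VALI lungs and at 6.32, 6.43 and 6.75 in the Control lungs. The 2 rhPBEF groups overlapped, each VALI array lay below every rhPBEF array, and each Control array lay below every VALI array. Group means were 11.13 ± 0.81 in rhPBEF & VALI lungs, 11.18 ± 0.18 in rhPBEF lungs, 7.97 ± 0.60 in VALI lungs and 6.50 ± 0.23 in Control lungs (SD, n = 3 each).

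**Figure D1:**
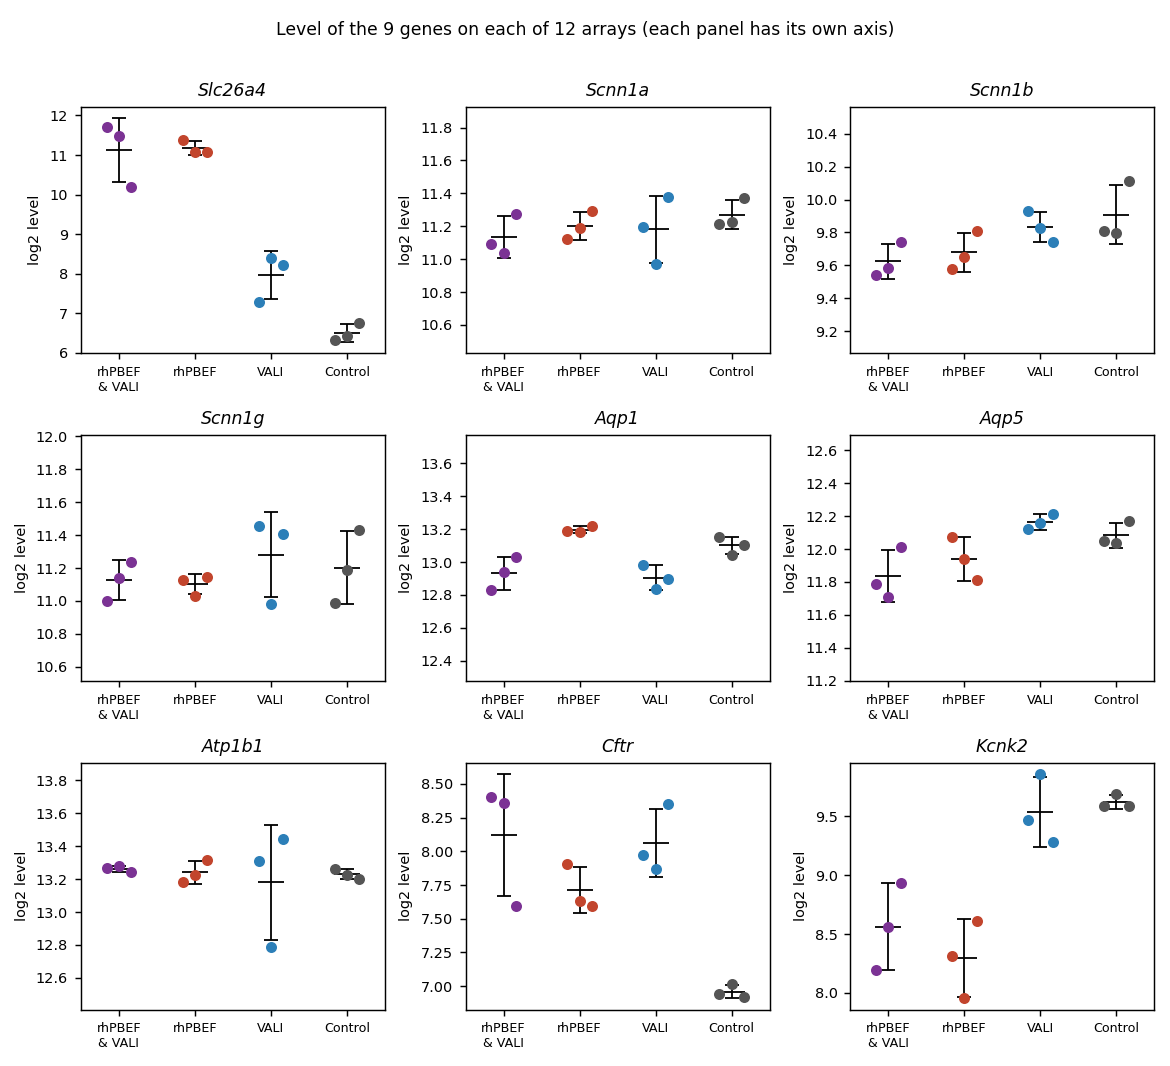
Log2 level of each of the 9 genes (y axis, own range in each panel) on each of 12 arrays, for the groups rhPBEF & VALI, rhPBEF, VALI and Control (x axis). Points are arrays, long bars are means and whiskers are 1 SD. Slc26a4 is at 10.20 to 11.71 in both rhPBEF groups, above the VALI and Control arrays, Kcnk2 is lower in both rhPBEF groups, and Cftr is lowest in Control.

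The comparison of rhPBEF & VALI lungs with VALI lungs, that is, rhPBEF in ventilated mice, shares no array with rhPBEF against Control. However, the genes were chosen with earlier results of these data known, and the spread was estimated from all arrays. Its p-values therefore cannot be taken as independent of the choice. Slc26a4 rose by 3.16 ± 0.37 (SE, 95% interval 2.34 to 3.97), which is 8.93-fold, with a limma adjusted p of 0.00412 over 12921 genes. Of the 9 genes it was the 1 that passed 0.05, and 0.325% of all genes passed. The difference ran from 2.82 to 3.62 when any 1 array was left out, always past 0.05, and it was 3.62 without rhPBEF & VALI replicate 3. With the spread estimated from these 6 arrays alone, the adjusted p was 0.224. Leaving out rhPBEF & VALI replicate 3 raised the number of the 9 genes past 0.05 to 3, by Kcnk2 and Aqp5.

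Ventilation without rhPBEF gave a smaller Slc26a4 difference. In VALI lungs against Control lungs it was 1.47 ± 0.37 (SE, 95% interval 0.66 to 2.28), 2.77-fold, and the groups did not overlap. It is a description, since the Control arrays took part in the choice of Slc26a4 as low there. Adding ventilation to rhPBEF gave -0.05 in rhPBEF & VALI lungs against rhPBEF lungs, with a 95% interval of -0.86 to 0.77. The interaction, the rhPBEF difference with ventilation minus that without, was -1.52 ± 0.52 (SE). It subtracts the difference for which Slc26a4 was chosen, and is given as a value only. Averaged over rhPBEF status the ventilation difference was 0.71 ± 0.26 (SE), and it ran from 0.57 to 0.94 when any 1 array was left out. This too is a value only, since the Control and rhPBEF arrays enter it.

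As a description, Slc26a4 was 4.68 higher on the log2 scale in rhPBEF lungs and 4.63 higher in rhPBEF & VALI lungs than in Control lungs, which is 25.6-fold and 24.8-fold. Control levels of 6.32 and 6.43 lay near the filter level of 6.42, and background was not measured. Neutrophil markers were also higher in every treated group than in Control. Of the 11 tested, 10 were higher in rhPBEF & VALI lungs than in VALI lungs, with a median difference of 0.34. There 0 passed an adjusted 0.05 by limma, and 0 had an unadjusted p under 0.05. All 11 were higher in VALI lungs than in Control lungs, with a median of 2.61 and 0 past 0.05. An unadjusted p under 0.05 was had by 8 of them, and by 15.5% of all genes. All 11 were also higher in rhPBEF & VALI lungs than in Control lungs, with a median of 3.01. By limma 7 of them passed 0.05, as did 8.79% of all genes. In rhPBEF lungs against Control lungs all 11 were higher, with a median of 2.67, and 4 passed 0.05, as did 1.22% of all genes. The part of neutrophil RNA in the Slc26a4 and Cftr differences was not tested. Markers of club and goblet cells, the secretory airway epithelium, summed to 16.48 to 16.63 in rhPBEF & VALI lungs, 16.51 to 16.69 in rhPBEF lungs, 16.42 to 16.59 in VALI lungs and 16.43 to 16.57 in Control lungs. The sum mostly follows Scgb1a1, Cyp2f2 and Scgb3a2, and Scgb1a1 reached the highest deposited value of 15.02. Of the 10 markers, 5 were higher in rhPBEF & VALI lungs than in VALI lungs and 8 in rhPBEF lungs than in Control lungs. Medians were 0.003 and 0.10, against -0.02 and -0.07 over all genes, and 0 passed 0.05 by limma.

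The rest of the family was measured beside it. Of 10 other SLC26 anion transporter genes listed, 9 were on the array and 4 passed the filter on low values, namely Slc26a2, Slc26a6, Slc26a8 and Slc26a11. In rhPBEF & VALI lungs against VALI lungs none of the 4 passed, and their differences were -0.19, 0.00, -0.15 and -0.05, a median of -0.10 against -0.02 over all genes. The largest of them in VALI lungs against Control lungs was 0.26 ± 0.09 (SE) for Slc26a8, with a limma adjusted p of 0.231.

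Cftr was higher after either treatment than in Control lungs. It stood at 8.40, 8.36 and 7.60 in the rhPBEF & VALI lungs and at 7.91, 7.63 and 7.60 in the rhPBEF lungs. It stood at 7.97, 7.87 and 8.35 in the VALI lungs and at 6.94, 7.02 and 6.92 in the Control lungs. All 9 treated arrays lay above all 3 Control arrays, and the treated groups overlapped one another. Means were 8.12 ± 0.45 in rhPBEF & VALI lungs, 7.71 ± 0.17 in rhPBEF lungs, 8.06 ± 0.25 in VALI lungs and 6.96 ± 0.05 in Control lungs (SD, n = 3 each). A second Cftr probe set stayed between 3.20 and 3.69 on all arrays, below the filter level of 6.42, and was not tested.

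In rhPBEF & VALI lungs Cftr rose by 1.16 ± 0.20 (SE, 95% interval 0.72 to 1.60) against Control lungs, 2.23-fold, with a limma adjusted p of 0.0106. In this comparison 3 of the 9 genes passed, Slc26a4, Cftr and Kcnk2, the first and last of them as the choice favoured, and 8.79% of all genes passed. The call was lost without rhPBEF & VALI replicate 1 (adjusted p = 0.0529) or replicate 2 (adjusted p = 0.0525), which left a count of 1. In VALI lungs against Control lungs the Cftr difference was 1.10 ± 0.20, 2.15-fold, with a limma adjusted p of 0.0909, which ran from 0.0317 without rhPBEF & VALI replicate 3 to 0.338 without Control replicate 2. There 0 of the 9 genes passed by limma, and 0.00774% of all genes did. Leaving aside Slc26a4, chosen in part for its low Control level, Cftr and Aqp1 had an unadjusted p under 0.05 by limma, as had 15.5% of all genes.

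Averaged over rhPBEF status, with 6 ventilated against 6 unventilated arrays, Cftr rose by 0.76 ± 0.14 (SE, 95% interval 0.45 to 1.07), 1.69-fold, with a limma adjusted p of 0.0471. It was the 1 of the 9 genes that passed, and 0.549% of all genes passed. The average joins unlike differences, 1.10 in VALI against Control and 0.41 in rhPBEF & VALI against rhPBEF. The adjusted p was 0.00397 without rhPBEF & VALI replicate 3 and between 0.0588 and 0.141 without any other single array. An exact two-sided permutation of the ventilation labels within rhPBEF status, added after the data were seen, gave p = 0.015 over 400 arrangements, where the smallest possible is 0.005. It was run for Cftr alone, on the same values that had passed, with no adjustment for the choice of gene, so it is not separate support. With a replicate block the adjusted p was 0.0748, and with no filter on low values 0.0563.

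No Cftr difference passed between the treated groups. It was 0.06 in rhPBEF & VALI lungs against VALI lungs, with a 95% interval of -0.38 to 0.49 and a limma adjusted p of 0.951. Against rhPBEF lungs the rhPBEF & VALI lungs differed by 0.41, with an interval of -0.03 to 0.85 and an adjusted p of 0.999. In that comparison 0 of the 9 genes passed by limma, and 0.00774% of all genes did. An unadjusted p under 0.05 was had by 1 of the 9, Aqp1, and by 3.77% of all genes. The Cftr interaction was -0.70 ± 0.28 (SE). For the interaction 0 of 12921 genes passed by limma, which is 0% of them, and 2.23% had an unadjusted p under 0.05.

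Ionocytes are airway cells rich in CFTR. The 3 of their markers that passed the filter, of 6 listed, Atp6v0d2, Atp6v1c2 and Bsnd, summed to 10.02 to 10.81 in rhPBEF & VALI lungs, 10.29 to 10.58 in rhPBEF lungs, 10.73 to 11.09 in VALI lungs and 10.91 to 11.14 in Control lungs. All 3 were lower in rhPBEF & VALI lungs than in Control lungs, with a median difference of -0.60 and 0 past an adjusted 0.05 by limma (2 unadjusted, where 27.5% of all genes had an unadjusted p under 0.05), in the comparison where Cftr was higher. Bsnd, at 6.34 to 6.65, lay near the filter level of 6.42, so the sum mostly follows Atp6v1c2 and Atp6v0d2. The other 3, among them Foxi1, the ionocyte transcription factor, did not pass the filter on low values. A change in ionocyte RNA was therefore not tested. Whether other lung cells supply the RNA of Atp6v1c2 and Atp6v0d2 was not tested either.

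Kcnk2 was lower in both rhPBEF groups. It stood at 8.19, 8.56 and 8.93 in the rhPBEF & VALI lungs and at 8.32, 7.95 and 8.62 in the rhPBEF lungs. It stood at 9.47, 9.86 and 9.28 in the VALI lungs and at 9.59, 9.69 and 9.59 in the Control lungs. Every array with rhPBEF lay below every array without it, and within each of these 2 sets the ventilated and unventilated arrays overlapped. Means were 8.56 ± 0.37 in rhPBEF & VALI lungs, 8.30 ± 0.33 in rhPBEF lungs, 9.54 ± 0.29 in VALI lungs and 9.62 ± 0.06 in Control lungs (SD, n = 3 each).

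For Kcnk2 too, p-values of rhPBEF & VALI against VALI cannot be taken as independent of the choice. In rhPBEF & VALI lungs against VALI lungs the Kcnk2 difference was -0.97 ± 0.21 (SE, 95% interval -1.44 to -0.51). This is 1.96-fold lower, with an unadjusted p of 0.000734, but the limma adjusted p of 0.101 did not pass. Left-out arrays moved it from 0.016 without rhPBEF & VALI replicate 3, the highest of its group, where the difference was -1.16, to 0.438 without replicate 1 of that group, where it was -0.79. As a description, Kcnk2 was 1.33 lower in rhPBEF lungs (2.51-fold) and 1.06 lower in rhPBEF & VALI lungs (2.08-fold) than in Control lungs.

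Kcnk2 differences with ventilation are likewise given as values. The difference was -0.09 in VALI lungs against Control lungs, with a 95% interval of -0.55 to 0.38. It was 0.27 in rhPBEF & VALI lungs against rhPBEF lungs, with an interval of -0.19 to 0.73. The interaction was 0.35 ± 0.30 (SE).

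Of 8 other tested K2P potassium channel genes none passed in rhPBEF & VALI lungs against VALI lungs by limma, and 1 had an unadjusted p under 0.05, as had 9.98% of all genes. All 8 differences were negative, with a median of -0.10 against -0.02 over all genes. The largest were -0.50 ± 0.33 (SE) for Kcnk5, a channel sensitive to external pH, and -0.46 ± 0.12 for Kcnk1 (adjusted p = 0.207). Kcnk3, the acid-sensitive channel of pulmonary arteries, stood at -0.05. In VALI lungs against Control lungs 6 of the 8 were positive, with a median of 0.15 against -0.04 over all genes. Against Control lungs, 4 of the 8 were positive in rhPBEF & VALI lungs (median -0.05, all genes -0.06) and 3 in rhPBEF lungs (median -0.09, all genes -0.07).

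**Figure D2:**
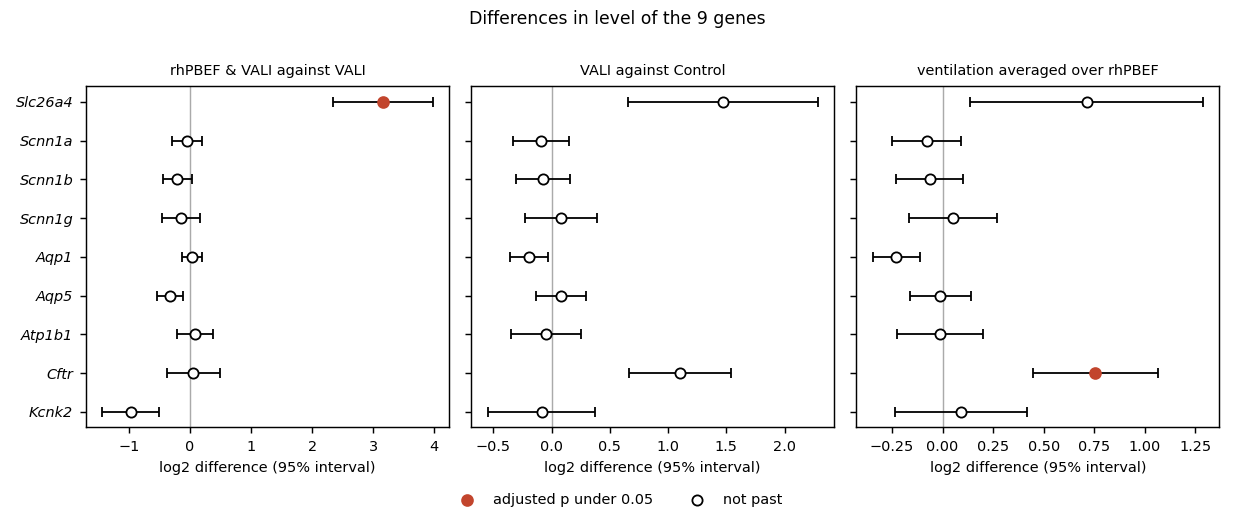
Log2 differences of the 9 genes (y axis) with 95% intervals (x axis) in 3 comparisons. VALI against Control (middle) shares the Control arrays with the choice of Slc26a4 and Kcnk2, so these are values only there. The ventilation average (right) shares the Control and rhPBEF arrays, so both genes are values only there too. Filled points passed a limma adjusted p of 0.05: Slc26a4 at 3.16 in rhPBEF & VALI against VALI and Cftr at 0.76 in the ventilation average. The x axes differ between panels.

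None of the 3 epithelial sodium channel genes passed in a tested comparison. Scnn1a, the pore-forming alpha subunit, stood at 11.09, 11.04 and 11.28 in rhPBEF & VALI lungs, 11.12, 11.19 and 11.29 in rhPBEF lungs, 11.20, 10.97 and 11.38 in VALI lungs and 11.21, 11.22 and 11.37 in Control lungs. All 4 groups overlapped. Its 5 tested differences lay between -0.14 and -0.05, none passed by limma, its interaction was 0.02, and the 95% interval of rhPBEF & VALI against VALI was -0.29 to 0.19.

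Scnn1b, the beta subunit gene, stood at 9.54, 9.58 and 9.74 in rhPBEF & VALI lungs, 9.58, 9.65 and 9.81 in rhPBEF lungs, 9.93, 9.83 and 9.74 in VALI lungs and 9.81, 9.80 and 10.11 in Control lungs. The rhPBEF & VALI arrays lay just below the Control arrays, a difference of -0.28 ± 0.11 (SE) with a limma adjusted p of 0.114. The interval in rhPBEF & VALI against VALI was -0.44 to 0.02. Scnn1g, the gamma subunit gene, averaged 11.13 ± 0.12 in rhPBEF & VALI lungs, 11.10 ± 0.06 in rhPBEF lungs, 11.28 ± 0.26 in VALI lungs and 11.20 ± 0.22 in Control lungs (SD, n = 3 each), and all groups overlapped. Its tested differences lay between -0.15 and 0.08.

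Atp1b1, of the sodium pump, passed in no tested comparison, and 1 array lay apart. Its main probe set stood at 13.27, 13.28 and 13.24 in rhPBEF & VALI lungs, 13.18, 13.23 and 13.32 in rhPBEF lungs, 13.31, 12.79 and 13.44 in VALI lungs and 13.26, 13.23 and 13.20 in Control lungs. VALI replicate 2 was the lowest array on this probe set and on 3 of the other 4 probe sets of the gene, and on the last of them Control replicate 2 was lower. The same array was lowest in summed alveolar type II markers, at 16.75 against 17.02 to 17.11 elsewhere. The VALI against Control difference was -0.05 with all arrays (95% interval -0.35 to 0.25, limma adjusted p = 0.876) and 0.15 without VALI replicate 2.

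No aquaporin difference among the 9 genes passed with all arrays. Aqp1, whose channel lies mainly in lung capillary endothelium, stood at 12.83, 12.94 and 13.03 in rhPBEF & VALI lungs, 13.19, 13.18 and 13.22 in rhPBEF lungs, 12.98, 12.83 and 12.90 in VALI lungs and 13.15, 13.04 and 13.11 in Control lungs. All 6 ventilated arrays lay below all 6 unventilated ones. The ventilation average was -0.23 ± 0.05 (SE, 95% interval -0.35 to -0.11), 1.17-fold lower, with an unadjusted p of 0.00117 and a limma adjusted p of 0.0962 that did not pass. Left-out arrays moved it from 0.0336 without rhPBEF & VALI replicate 3 to 0.248 without Control replicate 1.

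Endothelial markers were set beside Aqp1. All 11 listed were tested, and they summed to 15.27 to 15.49 in rhPBEF & VALI lungs, 15.47 to 15.53 in rhPBEF lungs, 15.15 to 15.42 in VALI lungs and 15.57 to 15.71 in Control lungs. In the ventilation average 2 of the 11, Eng and Egfl7, fell past an adjusted 0.05 by limma, where 0.549% of all genes passed. The median of the 11 was -0.09 against -0.02 over all genes. The part of endothelial RNA in the Aqp1 difference was not tested.

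Aqp5, the water channel of the apical membrane of alveolar type I cells, stood at 11.79, 11.71 and 12.01 in rhPBEF & VALI lungs, 12.08, 11.94 and 11.81 in rhPBEF lungs, 12.12, 12.16 and 12.21 in VALI lungs and 12.05, 12.03 and 12.17 in Control lungs. The rhPBEF & VALI arrays lay below every VALI and Control array. Against VALI lungs the difference was -0.33 ± 0.10 (SE, 95% interval -0.54 to -0.11), 1.26-fold lower, with a limma adjusted p of 0.263, which ran from 0.0402 without rhPBEF & VALI replicate 3 to 0.793 without replicate 1 of that group. Against Control lungs it was -0.25 ± 0.10, with an adjusted p of 0.128, which ran from 0.0308 without replicate 3 to 0.356 without replicate 2 of the rhPBEF & VALI group. Alveolar type I markers, 10 of 10 tested, summed to 16.30 to 16.42 in rhPBEF & VALI lungs, 16.32 to 16.38 in rhPBEF lungs, 16.21 to 16.46 in VALI lungs and 16.39 to 16.45 in Control lungs. In rhPBEF & VALI against VALI 0 of them passed 0.05 by limma. An unadjusted p under 0.05 was had by 1 of them, and by 9.98% of all genes.

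Counted over the 9 genes, arrays of the 2 groups did not overlap for 3 genes in rhPBEF & VALI against VALI, where 10.4% of all genes did not, and for 3 in VALI against Control, where 24.6% did not. They did not overlap for 1 gene in rhPBEF & VALI against rhPBEF (9.4% of all genes) and for 6 in rhPBEF & VALI against Control (36.9%). Slc26a4 is counted in VALI against Control, and Slc26a4 and Kcnk2 in rhPBEF & VALI against Control, where the choice favoured them. In rhPBEF against Control, the comparison behind the choice, 4 of 9 did not overlap and 33.3% of all genes did not. There Slc26a4 and Kcnk2 passed, as the choice fixed, and 1.22% of all genes passed. The median difference of the 9 genes in rhPBEF & VALI against VALI was -0.05, against -0.02 over all genes.

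Around these genes 126 others of ion, water and junction biology were listed in 8 groups, and 88 were tested. None passed in rhPBEF & VALI lungs against VALI lungs by limma, 19 (21.6%) had an unadjusted p under 0.05, as had 9.98% of all genes, and the median was -0.02, as over all genes. The largest differences were 1.08 ± 0.27 (SE) for Hsd11b2, the enzyme that inactivates glucocorticoid (adjusted p = 0.174), 0.85 ± 0.22 for the tight junction scaffold gene Tjp3 (adjusted p = 0.192), -0.83 ± 0.22 for the potassium channel subunit gene Kcne2 (adjusted p = 0.201) and 0.72 ± 0.16 for Slc9a3r1 (adjusted p = 0.119). None passed in VALI against Control, where 17 (19.3%) had an unadjusted p under 0.05 and 15.5% of all genes had one. None passed in rhPBEF & VALI against rhPBEF, where 8 (9.09%) had one and 3.77% of all genes.

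In the ventilation average 1 of the 88 passed (1.14%), where 0.549% of all genes did. Aqp4, the water channel of the basolateral airway membrane, stood at 6.71, 7.11 and 7.0 in rhPBEF & VALI lungs against 7.46, 7.38 and 7.42 in rhPBEF lungs, and at 6.53, 6.27 and 6.82 in VALI lungs against 7.17, 7.17 and 6.96 in Control lungs. The ventilated arrays were lower than the unventilated ones within each rhPBEF status. It fell by 0.52 on the log2 scale, with a limma adjusted p of 0.0497, and passed in 5 of 18 other fits, where the adjusted p reached 0.151. Kcne4, a potassium channel subunit gene, had 1.14 ± 0.22 (SE, adjusted p = 0.0541) and the claudin gene Cldn4 1.12 ± 0.28 (adjusted p = 0.113).

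**Figure D3:**
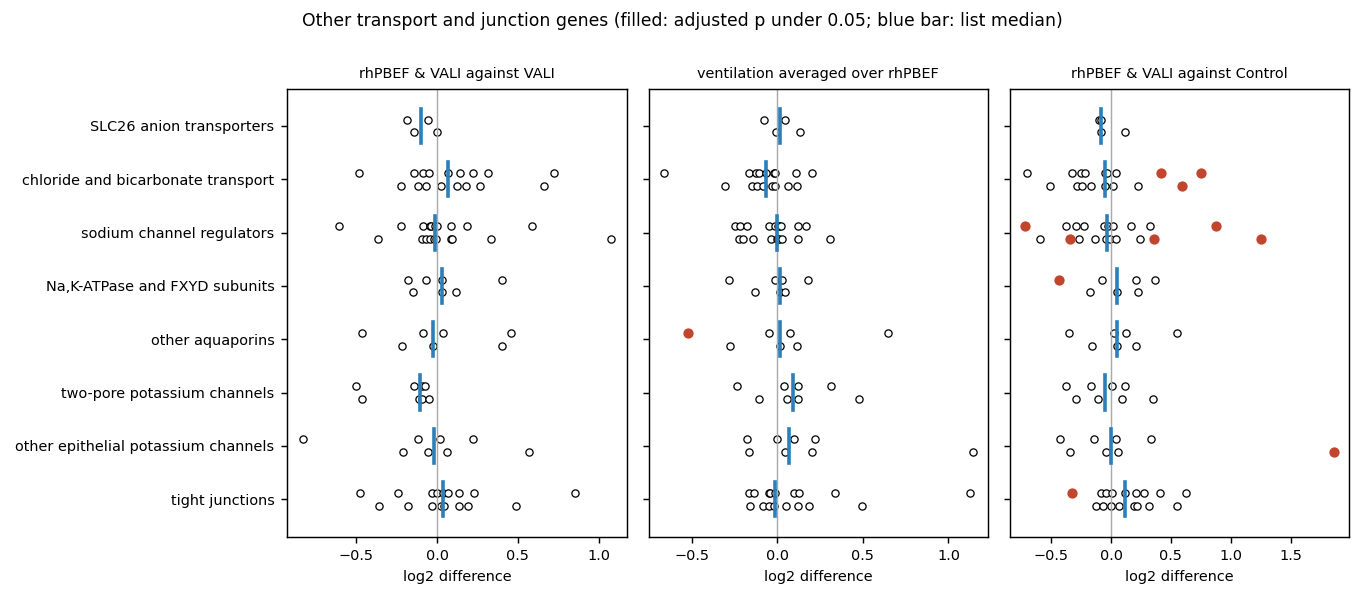
Log2 differences (x axis) of 88 tested genes in 8 lists (y axis) in 3 comparisons. Points are genes, filled ones passed a limma adjusted p of 0.05, and blue bars are list medians. No gene passed in rhPBEF & VALI against VALI, Aqp4 passed in the ventilation average, and 11 passed in rhPBEF & VALI against Control.

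Against Control lungs, rhPBEF & VALI lungs had 7 of the 88 genes higher and 4 lower past 0.05. This is 12.5% of them, where 8.79% of all genes passed, 3.93% higher and 4.86% lower. The 88 had a median of -0.01 against -0.06 over all genes. The genes in this paragraph were named after their values were seen. Slc12a2 encodes the basolateral cotransporter NKCC1, which loads epithelial cells with chloride. It stood at 12.34, 12.29 and 12.15 in rhPBEF & VALI lungs, 12.09, 12.11 and 12.17 in rhPBEF lungs, 11.81, 11.99 and 12.03 in VALI lungs and 11.59, 11.72 and 11.68 in Control lungs. Every treated array lay above every Control array. The rise in rhPBEF & VALI lungs against Control lungs was 0.59 ± 0.08 (SE), 1.51-fold, with a limma adjusted p of 0.00499, and it passed in 20 of 20 other fits. In rhPBEF lungs against Control lungs Slc12a2 rose by 0.46 ± 0.08 (limma adjusted p = 0.0242), and passed in 14 of 20 other fits. It was the 1 of the 88 that passed there (1.14%, all genes 1.22%). Between rhPBEF & VALI lungs and rhPBEF lungs its difference was 0.14 (limma adjusted p = 0.999).

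Of the 17 tested genes of chloride and bicarbonate transport, 3 rose past 0.05 in rhPBEF & VALI lungs against Control lungs and 14 did not pass. Of the 17 differences 11 were negative, with a median of -0.05 against -0.06 over all genes, among them -0.71 ± 0.21 (SE) for Slc4a5 (adjusted p = 0.0593) and -0.32 ± 0.09 for Slc12a7 (adjusted p = 0.0564). Beside Slc12a2, Slc9a3r1, which encodes the scaffold NHERF1 that binds CFTR, rose by 0.75 ± 0.16 (limma adjusted p = 0.0237), and Slc4a4, a sodium bicarbonate cotransporter gene, rose by 0.41 ± 0.12 (adjusted p = 0.0492). Among regulators of the sodium channel Hsd11b2 rose by 1.25 ± 0.27. The membrane protease genes St14 and Tmprss4 rose by 0.88 ± 0.16 and 0.36 ± 0.10, and the protease gene Prss8 had -0.72 ± 0.16. For Nedd4, which encodes a ubiquitin ligase, the difference was -0.34 ± 0.09. Kcne4 rose by 1.86 ± 0.31. The sodium pump regulator gene Fxyd1 had -0.43 ± 0.10 and Cldn18, the alveolar claudin gene, -0.32 ± 0.07. Over 20 other fits each kept its direction, but Slc4a4 passed in 5, Nedd4 in 6, Tmprss4 in 11, Hsd11b2, Fxyd1 and Cldn18 in 14, Slc9a3r1 and Prss8 in 15, St14 in 16 and Kcne4 in 19.

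The genes whose levels over the 12 arrays were most like those of Slc26a4, of 12920 others, were Steap4 (Pearson r 0.99), Cxcl1, Hivep3, Malt1 and Ctps (0.98 each). Steap4 encodes a metalloreductase, Cxcl1 a neutrophil chemokine, and Malt1 a protease of NF-kappa B signalling. The 12 arrays share the group structure, so r mostly follows the groups. With group means removed it was 0.83 for Steap4, 0.53 for Cxcl1, 0.76 for Hivep3, 0.70 for Malt1 and 0.80 for Ctps. In rhPBEF & VALI lungs against VALI lungs Steap4 was higher by 2.87, Cxcl1 by 3.14, Hivep3 by 1.47, Malt1 by 1.43 and Ctps by 1.25, beside 3.16 for Slc26a4.

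The genes most like Kcnk2 were Cmtm8 and Slc39a9 (Pearson r 0.97 each), Trrap (0.96), Zranb2 (0.95) and Aagab (0.94). Slc39a9 is a zinc transporter gene and Trrap encodes a scaffold of histone acetyltransferase complexes. With group means removed r was 0.79 for Cmtm8, 0.87 for Slc39a9, 0.87 for Trrap, 0.89 for Zranb2 and 0.57 for Aagab. Their differences in rhPBEF & VALI against VALI lay between -0.50 for Cmtm8 and -0.15 for Slc39a9, beside -0.97 for Kcnk2. These likenesses are descriptions over arrays that also chose Slc26a4 and Kcnk2.

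**Figure D4:**
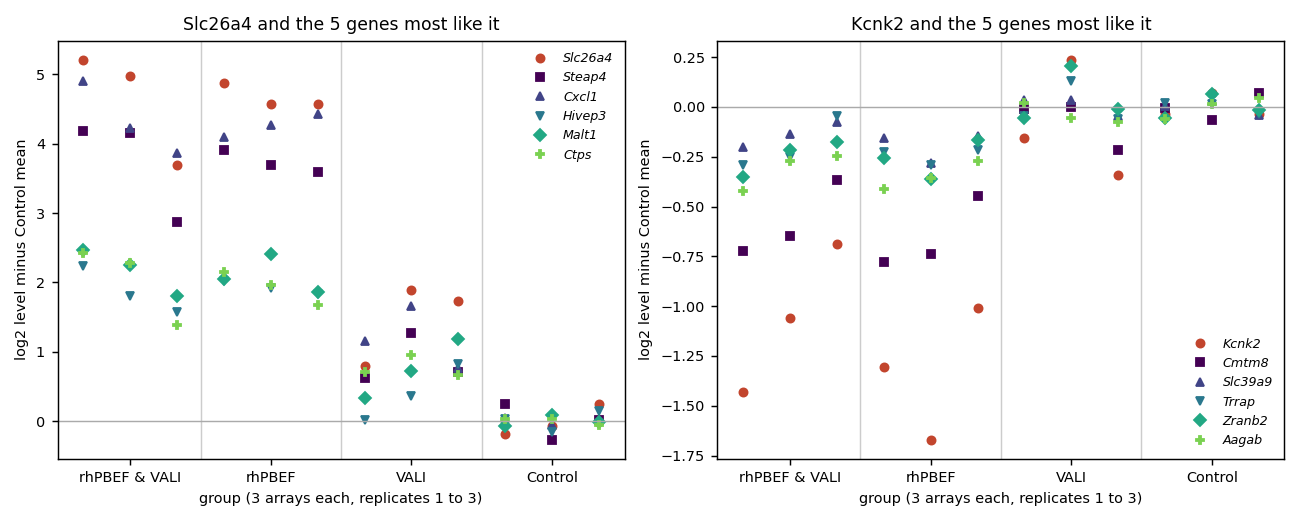
Log2 level minus the Control mean (y axis) on each of 12 arrays, by group (x axis), for Slc26a4 and the 5 genes most like it (left) and for Kcnk2 and its 5 (right). The y axes differ. Slc26a4 and Kcnk2 have the largest spread of their panels. Within its group, rhPBEF & VALI replicate 3 lies nearest the VALI arrays for every gene plotted.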

How the data were processed

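Per the labels' protocols, lung RNA isolated with Trizol was labelled with biotin for Affymetrix arrays. The values deposited are log2 levels of probe sets. MAS5 and GCRMA are named in the submitters' processing notes without role or version, so background correction and scaling are unknown and low values may be background. Groups came from titles and treatment labels, which matched for all 12 arrays, and a description calling every animal a control was not used. The 9 genes and all lists were chosen with earlier results of these data known.

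Control probe sets and those with a 12-array mean at or below the 40th percentile (log2 level 6.42) were left out. The highest probe set with 1 symbol stood for each of 12921 genes. limma 3.58.1 in R 4.3.3 (lmFit, eBayes; 4 group means, all 12 arrays) tested contrasts, with Benjamini-Hochberg adjustment over all genes and a threshold of 0.05. The number of arrays limits the precision. Steps were tested on simulated data. The text names all 9 genes, list genes past 0.05 and the 3 of each list with the largest change in rhPBEF & VALI against VALI and in the ventilation average where described, the 5 most correlated genes, and others as stated. Whether replicate numbers pair arrays was not settled, and the main fit used no replicate block. Of 18 same-numbered pairs 7 had residual correlations over 0.1 (lowest -0.21, highest 0.526), and differently numbered pairs were not set beside them. RefSeq promoter windows were searched for motifs.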

Additional observations from a re-analysis of the deposited data

How the results depend on the processing

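With 3 arrays a group, no detection calls and unknown scaling, small and low signals are limited most. In rhPBEF & VALI against VALI, 42 genes passed with all 12 arrays and 3 with only the arrays compared. There 0 of the 9 genes passed and Slc26a4, at 3.16, had a limma adjusted p of 0.224, with the spread estimated from fewer arrays. In rhPBEF against Control 158 genes passed, and 636 with only the arrays compared. In the ventilation average 71 passed, and 40 with no filter on low values. Of the 9 genes 0 passed there with no filter, with the 60th percentile filter, which drops Cftr, and with the replicate block. Cftr stayed at 0.76, with adjusted p of 0.0563 with no filter and 0.0748 with the replicate block. The block changed no other call among the 9 genes. In VALI against Control 1 gene passed, against 4 with the mean of a gene's probe sets or trended, robust variance, 2 with probe sets counted, and 0 with the block or only the arrays compared. In rhPBEF & VALI against rhPBEF it was 1, 2 with the mean of probe sets, and 0 with the block or only the arrays compared.

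Signs turned near 0. With the mean of its probe sets Atp1b1 in VALI against Control was 0.029. The Scnn1a interaction was -0.0041 with arrays centred on their medians and -0.0052 after quantile normalization. Causes of these changes were not tested.

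Leaving out each array in turn gave 1 to 3 of the 9 genes in rhPBEF & VALI against VALI, 0 to 1 in VALI against Control, 0 to 3 in the ventilation average, 1 to 4 in rhPBEF & VALI against Control and 1 to 3 in rhPBEF against Control. The count in rhPBEF against Control was 1 without any Control array or without rhPBEF replicate 1 or 2. The highest count came without rhPBEF & VALI replicate 3 in each of these. In the ventilation average that count includes Slc26a4, whose difference there is a description. Genes past 0.05 in all ranged from 13 to 406 in rhPBEF & VALI against VALI, 0 to 43 in VALI against Control, 0 to 3 in rhPBEF & VALI against rhPBEF, 6 to 555 in the ventilation average, 0 to 4 in the interaction, 152 to 2498 in rhPBEF & VALI against Control and 44 to 358 in rhPBEF against Control. Log2 differences in rhPBEF & VALI against VALI ranged from -1.16 to -0.79 for Kcnk2, -0.15 to 0.050 for Scnn1a and -0.084 to 0.32 for Cftr. In VALI against Control they ranged from 0.96 to 1.20 for Cftr, -0.030 to 0.23 for Scnn1g, -0.18 to 0.15 for Atp1b1 and -0.25 to 0.041 for Kcnk2. Cftr ranged from 0.68 to 0.89 in the ventilation average and from 1.02 to 1.42 in rhPBEF & VALI against Control. Slc26a4 in rhPBEF & VALI against rhPBEF ranged from -0.34 to 0.42, and the Scnn1a interaction from -0.084 to 0.12.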
